A study of Homo sapiens with 6 samples.

Results

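Expression of the genes that surround SNAI1 and the long noncoding RNA ncRNA-a7 on human chromosome 20q13 was followed across 6 microarrays of A549 cells, an established human lung adenocarcinoma line. The list was drawn up by symbol and position, with earlier results of these data known, and ncRNA-a7 was looked up in the array's annotation as TRERNA1. Of 33 genes in the list, 31 were represented by 52 of the 48701 probes, and NCOA3 and SPATA2 were not analysed here. Total RNA came from 3 groups of transfected cells with 2 arrays each, which had received control siRNA, Snai1 siRNA or ncRNA-a7 siRNA. The cell line, the medium and the extraction reagent were common to all groups, per the labels, which state neither the siRNA dose nor the time after transfection. They also do not say whether replicates were separate cultures, so the p-values rest on array-to-array spread that may be technical, and precision is limited by how few arrays there are.

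SNAI1 is a zinc finger transcription factor that binds E-box sequences and represses genes such as the one for E-cadherin during epithelial to mesenchymal transition. ncRNA-a7 belongs to a class of long noncoding RNAs described as having enhancer-like activity, meaning that their depletion is reported to lower the expression of genes nearby on the chromosome, and SNAI1 is the neighbour reported for it. The band around both genes is gained in many carcinomas. The comparisons bear on which neighbours differ when either transcript is targeted, and on how far from the locus they lie. The array names no genome build, so gene order and distances are those of the RefSeq assembly GRCh38.p14, between the lowest coordinate of each gene and that of TRERNA1. For genes on the minus strand this coordinate is the end of the gene and not its transcription start.

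Signals are linear intensities as deposited. Differences are on the log2 scale after background correction with an offset of 50 and quantile normalization, which understates the change of dim genes. A probe passed the filter when its mean log2 value lay above that of the median probe, and a gene was represented by its brightest such probe. Called here means an adjusted p under 0.05, by Benjamini-Hochberg over all 19730 features of a limma fit. Of the 31 genes with a probe, 26 passed the filter, through 41 probes. The other 5 were TRERNA1, SNAI1, PTGIS (the prostacyclin synthase), NFATC2 (a calcium-regulated transcription factor) and TSHZ2 (a zinc finger protein). The 11 probes of the list below the filter read from 100.8 to 172.7 over all arrays, and in a fit over all probes none of their differences was called (adjusted p = 0.21 to 0.997).

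The mean signal of an array ran from 715 to 914, the lowest being Snai1 siRNA replicate 2. Of 8 epithelial markers 7 passed the filter, while the alveolar surfactant gene SFTPC did not, and their summed signal was 27297 to 32295 with control siRNA, 26377 to 33061 with Snai1 siRNA and 33095 to 35259 with ncRNA-a7 siRNA. That sum rests mostly on KRT8 and KRT7, and single markers differed from control in both directions, EPCAM by a log2 of -1.12 with Snai1 siRNA and -1.64 with ncRNA-a7 siRNA (limma adjusted p = 0.0012 and 0.000103) and CDH1 by 0.78 and 0.72 (adjusted p = 0.0014 and 0.00194). KRT7 differed by -0.68 with Snai1 siRNA (adjusted p = 0.00347). With ncRNA-a7 siRNA KRT8 differed by 0.49 (adjusted p = 0.0402) and KRT18 by -0.42 (adjusted p = 0.0448). Of 5 markers each of fibroblasts, leukocytes and endothelial cells 3 passed, namely COL1A1, DCN and LUM, CD14, ITGAM and LYZ, and PECAM1, ESAM and KDR, while COL1A2, COL3A1, PTPRC, CD3E, VWF and CDH5 did not. Of those that passed, CD14 differed from control by a log2 of 1.15 with Snai1 siRNA and 1.01 with ncRNA-a7 siRNA (limma adjusted p = 0.000266 and 0.000439), and ESAM by 1.48 and 0.66 (adjusted p = 6.67e-05 and 0.00637). ITGAM differed by 0.80 with ncRNA-a7 siRNA (adjusted p = 0.00126), and COL1A1 and LUM by 0.53 each with Snai1 siRNA (adjusted p = 0.0193 and 0.0158). LYZ (-0.16 and -0.15) and PECAM1 (-0.21 and -0.09) lay below control with both siRNAs and were not called. DCN and KDR were not called either. The median probe of an array read 147.5 to 154.1. Over all arrays KRT18 read 179.7 to 227.2, COL1A1 157.7 to 205.9 and ITGAM 164.1 to 258.4, not far above it. CD14 read 219.4 to 494.1, ESAM 159.2 to 413.1 and LUM 311.5 to 535. Sums are over all 5 markers of a type, passed or not, so much of each is signal at the level of the median probe. The summed signal of the leukocyte markers was 825 to 845 with control siRNA, 964 to 1159 with Snai1 siRNA and 1068 to 1116 with ncRNA-a7 siRNA. In the same order it was 790 to 804, 887 to 1036 and 813 to 908 for the endothelial markers, and 871 to 977, 990 to 1144 and 970 to 981 for the fibroblast markers. Their part in the results was not tested.

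The SNAI1 probe, for a gene 57.7 kb from TRERNA1, read 127.5 and 127.3 after Snai1 siRNA, 142.7 and 144.2 after control siRNA, and 138.8 and 146.5 after ncRNA-a7 siRNA. Both Snai1 siRNA arrays lay below the 4 others, and the ncRNA-a7 siRNA arrays enclosed the controls. Over all 48701 probes, without the filter, the limma adjusted p for SNAI1 was 0.479 with Snai1 siRNA and 0.997 with ncRNA-a7 siRNA. The TRERNA1 probe read 117.9 and 117.8 after control siRNA, 129.7 and 132.5 after ncRNA-a7 siRNA, and 142.7 and 128.6 after Snai1 siRNA. All 4 arrays with a targeting siRNA lay above both controls (adjusted p = 0.427 with ncRNA-a7 siRNA and 0.281 with Snai1 siRNA). Both probes read below the median signal of their array throughout. At these levels the arrays check neither siRNA against its label, and a difference in SNAI1 after ncRNA-a7 siRNA was not detectable.

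**Figure D1:**
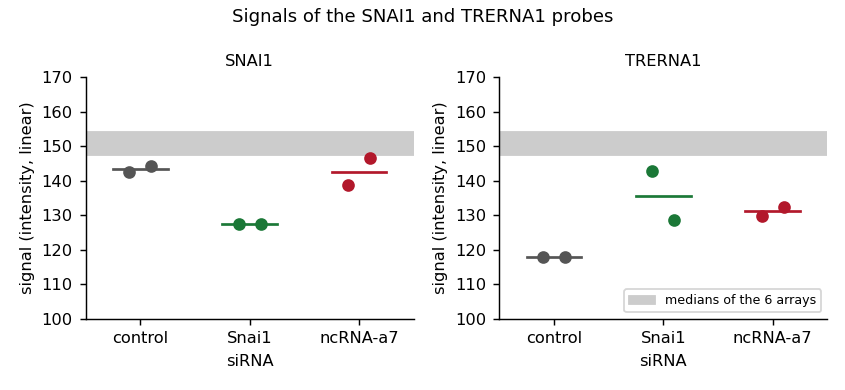
Deposited signal (linear intensity) of the SNAI1 and TRERNA1 probes by siRNA group. Points are arrays, lines are group means and the grey band spans the 6 array medians, 147.5 to 154.1. The SNAI1 signals with Snai1 siRNA (127.5 and 127.3) lie lowest, and every TRERNA1 signal with a targeting siRNA lies above the controls.

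Of the 26 tested genes, 5 were called in at least 1 comparison. The share of all features called in at least 1 comparison was not computed, so that count stands without a background. With Snai1 siRNA, PEDS1 fell and BCAS1 rose. With ncRNA-a7 siRNA, PTPN1 and DDX27 fell and SULF2 and BCAS1 rose. Fewer cells of a type and less RNA per cell cannot be told apart in these bulk samples. The count was 2 of 26 with Snai1 siRNA, where 9.16% of all features were called, and 4 of 26 with ncRNA-a7 siRNA, where 9.94% were called. Both counts are within 2 genes of what those shares would give, so neither sets the list apart. The median log2 change of the 26 genes was -0.02 with Snai1 siRNA and -0.06 with ncRNA-a7 siRNA, beside -0.01 over all features in each comparison. The arrays of the 2 groups did not overlap for 15 of 26 genes with Snai1 siRNA and 14 of 26 with ncRNA-a7 siRNA, against 53.4% and 52.0% of all features. All features take in probes without a gene. Over the 13057 named genes alone 59.2% and 57.9% did not overlap, and 11.5% and 12.5% were called. Both comparisons share the control arrays.

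**Figure D2:**
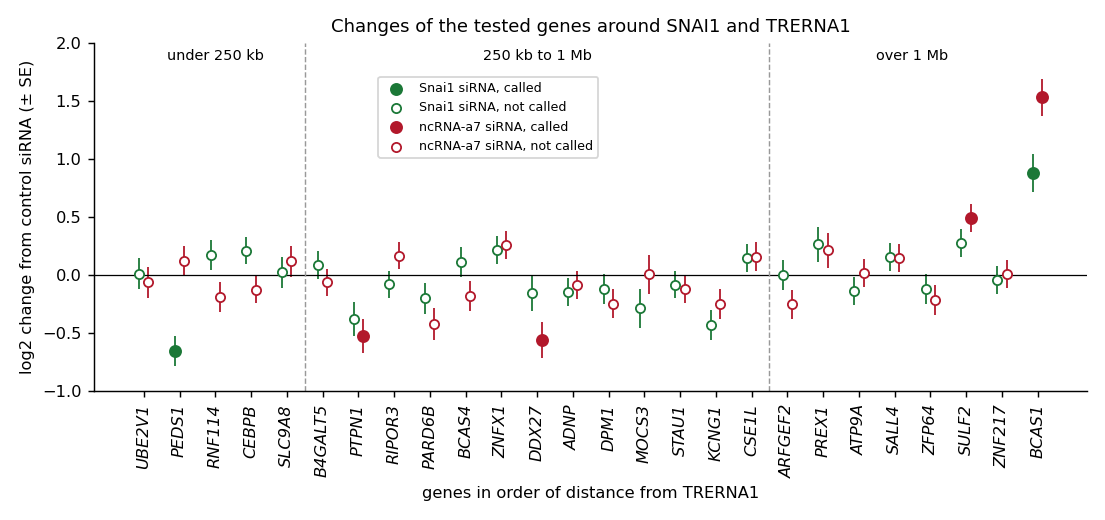
Log2 change from control siRNA (y axis, bars are SE of the limma fit, n = 2 arrays per group) of the 26 tested genes in order of distance from TRERNA1 (x axis), for Snai1 siRNA and ncRNA-a7 siRNA. Called genes are marked. PEDS1 with Snai1 siRNA at -0.65 and BCAS1 with ncRNA-a7 siRNA at 1.53 are the lowest and highest points.

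Within 250 kb of TRERNA1, 5 neighbours in the list were tested, and the PEDS1-UBE2V1 readthrough, outside the list, was tested too. SNAI1 and SPATA2 also lie in this range and were not tested. PEDS1 encodes the desaturase that forms the vinyl ether bond of plasmalogen lipids, and its lowest coordinate lies 77.5 kb from that of TRERNA1. Its brighter probe read 1283 and 1155 after Snai1 siRNA, 1842 and 2237 after control siRNA, and 2222 and 1986 after ncRNA-a7 siRNA. Both Snai1 siRNA arrays lay below the 4 others. PEDS1 was 1.57-fold lower with Snai1 siRNA than with control (log2 change -0.65 ± 0.13 SE, limma adjusted p = 0.00862). With ncRNA-a7 siRNA it differed from control by 0.12 ± 0.13 (adjusted p = 0.626), and it was 1.71-fold higher than with Snai1 siRNA (log2 difference 0.78 ± 0.13, adjusted p = 0.00493). The direct difference was called in every alternative tried except the test against a minimum change of 1.5-fold. With every probe as a feature, it was read on the brighter probe alone. That minimum change also ended the call of the fall from control. The fall from control was not called without Snai1 siRNA replicate 1 (log2 change -0.50, adjusted p = 0.0789), control siRNA replicate 1 (-0.68, adjusted p = 0.0715) or control siRNA replicate 2 (-0.63, adjusted p = 0.0701).

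The second PEDS1 probe did not separate the groups in the same way. It read 553.5 and 374.1 after Snai1 siRNA, 467.1 and 543.9 after control siRNA, and 515.1 and 560.7 after ncRNA-a7 siRNA, and the Snai1 siRNA arrays enclosed both the lower and the higher control. Its log2 change with Snai1 siRNA was -0.07 (adjusted p = 0.81 with every probe past the filter as a feature). Between the siRNAs this second probe differed by a log2 of 0.21 and was not called (limma adjusted p = 0.35 in the same fit). With the mean of both probes the change was -0.36 (adjusted p = 0.0577). PEDS1 also forms a readthrough transcript with its neighbour UBE2V1, listed as PEDS1-UBE2V1. The readthrough probe read 326.7 and 296.9 after Snai1 siRNA, 383.0 and 440.6 after control siRNA, and 414.5 and 500.1 after ncRNA-a7 siRNA. Its Snai1 siRNA arrays lay below the 4 others, and it was 1.49-fold higher after ncRNA-a7 siRNA than after Snai1 siRNA (log2 difference 0.57 ± 0.13, adjusted p = 0.0244). Its difference from control was -0.37 ± 0.13 with Snai1 siRNA (adjusted p = 0.114) and 0.20 ± 0.13 with ncRNA-a7 siRNA (adjusted p = 0.403). The overlapping transcripts can share sequence, so the division of signal among these probes is uncertain.

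UBE2V1, an inactive ubiquitin-conjugating enzyme variant that helps build regulatory ubiquitin chains, has its lowest coordinate 40.4 kb from that of TRERNA1. Its brightest probe read 186.6 and 159.9 after Snai1 siRNA, 160.6 and 193.0 after control siRNA, and 177.5 and 159.7 after ncRNA-a7 siRNA. The groups overlapped, with log2 changes of 0.01 ± 0.13 with Snai1 siRNA and -0.06 ± 0.13 with ncRNA-a7 siRNA. Of its 4 probes 2 passed the filter, and neither was called. Signals of the brightest probe lie little above the array medians of 147.5 to 154.1, in the dim range where the offset understates change.

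RNF114, a RING-type ubiquitin ligase 104.3 kb away, read 4534 and 3175 after Snai1 siRNA, 3077 and 4436 after control siRNA, and 3222 and 2895 after ncRNA-a7 siRNA. CEBPB, a leucine zipper transcription factor of inflammation and differentiation 149.9 kb away, read 23273 and 18780 after Snai1 siRNA, 19921 and 20205 after control siRNA, and 19604 and 15910 after ncRNA-a7 siRNA. Neither gene was called against control, and after normalization both were lower on the ncRNA-a7 siRNA arrays than on the Snai1 siRNA arrays, without overlap. The direct log2 differences, ncRNA-a7 siRNA minus Snai1 siRNA, were -0.35 ± 0.13 for RNF114 (adjusted p = 0.119) and -0.33 ± 0.12 for CEBPB (adjusted p = 0.108). Each was called under 4 of 19 alternatives, at an adjusted p of 0.0258 to 0.0428 for RNF114 and 0.0164 to 0.0382 for CEBPB. SLC9A8, a sodium/proton exchanger of the Golgi 227.9 kb away, read 613.2 and 413.2 after Snai1 siRNA, 479.0 and 582.9 after control siRNA, and 506.2 and 607.4 after ncRNA-a7 siRNA, and its groups overlapped in every comparison. With ncRNA-a7 siRNA 0 of these 5 nearest tested genes of the list were called by limma and 0 had an unadjusted p under 0.05. Their log2 changes ran from -0.18 to 0.12 at standard errors of 0.12 to 0.14. Over all features 9.94% were called and 24.3% had an unadjusted p under 0.05, so 0 of 5 is near the background.

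Between 250 kb and 1 Mb, 13 genes were tested. With ncRNA-a7 siRNA 2 of them fell and 0 rose. With Snai1 siRNA 0 were called by limma, with 2 at an unadjusted p under 0.05, where 23.2% of all features had one. Each of these counts is within 2 genes of the background. PTPN1 encodes a tyrosine phosphatase known for switching off the insulin and leptin receptors, and lies 469.7 kb from TRERNA1. It read 656.3 and 830.3 after ncRNA-a7 siRNA, 1005 and 1146 after control siRNA, and 849.3 and 719.3 after Snai1 siRNA. All 4 arrays with a targeting siRNA lay below both controls. With ncRNA-a7 siRNA it was 1.44-fold lower than control (log2 change -0.52 ± 0.14, adjusted p = 0.0409), and with Snai1 siRNA it differed by -0.38 ± 0.14 (adjusted p = 0.138). The direct difference between the siRNAs was -0.15 ± 0.14 (adjusted p = 0.593), so the PTPN1 values were not shown to differ between them.

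DDX27 encodes a DEAD-box helicase of ribosomal RNA processing and lies 821.3 kb from TRERNA1, on the SNAI1 side. It read 1008 and 1212 after ncRNA-a7 siRNA, 1576 and 1786 after control siRNA, and 1426 and 1382 after Snai1 siRNA. The ncRNA-a7 siRNA arrays lay below the 4 others. It was 1.47-fold lower than control with ncRNA-a7 siRNA (log2 change -0.56 ± 0.16, adjusted p = 0.0426) and differed by -0.15 ± 0.16 with Snai1 siRNA (adjusted p = 0.618). The direct difference was -0.41 ± 0.16 (adjusted p = 0.138). The PTPN1 and DDX27 calls were each lost without control siRNA replicate 1 (adjusted p = 0.215 and 0.224), control siRNA replicate 2 (0.139 and 0.14), or the first ncRNA-a7 siRNA replicate (0.231 and 0.23), and that of PTPN1 was lost too on leaving out Snai1 siRNA replicate 2 (0.0543). Without ncRNA-a7 siRNA replicate 1 the log2 change was -0.32 for PTPN1 and -0.41 for DDX27. An offset of 16 also ended both calls (adjusted p = 0.108 and 0.118), as did testing every gene without the filter (0.133 and 0.132) and testing against a minimum change of 1.5-fold. The DDX27 call was also lost in the fit on the mean of a gene's probes (adjusted p = 0.0528). DDX27 has 1 probe, so its own log2 change stayed at -0.56 there.

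**Figure D3:**
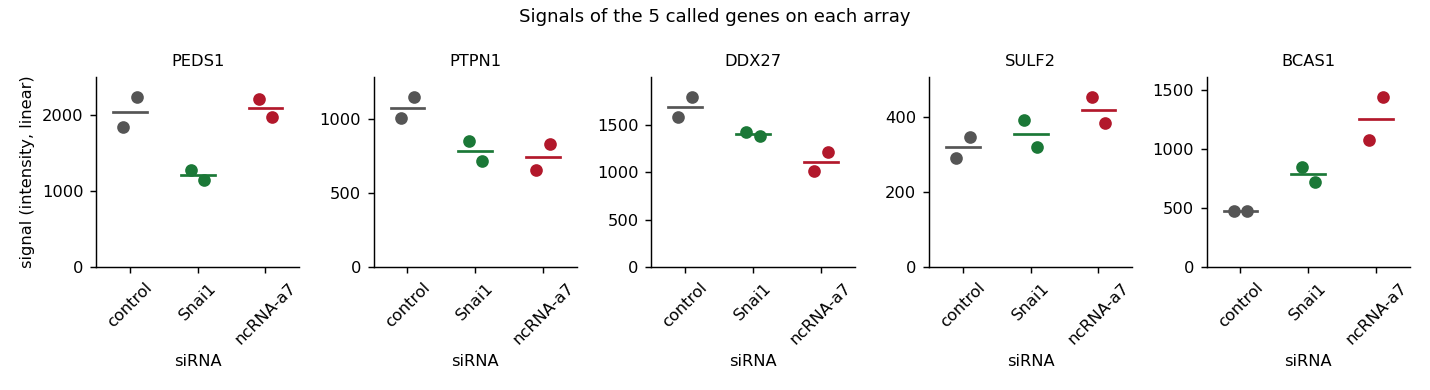
Deposited signal (linear intensity) of the 5 called genes by siRNA group. Points are the 2 arrays of a group and lines are their means. PEDS1 is lowest with Snai1 siRNA, DDX27 is lowest with ncRNA-a7 siRNA, both PTPN1 groups with a targeting siRNA lie below control, and SULF2 and BCAS1 have their highest means with ncRNA-a7 siRNA.

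The promoter windows of both genes that fell with ncRNA-a7 siRNA are shown, searched for CACCTG, an E-box form that SNAI1 binds. Neither window holds it, like most of the 35116 windows of all genes, of which 20.6% do. Binding of SNAI1 was not tested. The search took in the other strand, where the motif reads CAGGTG. Each window runs from 250 bases before the gene start to 50 bases after it (RefSeq, GRCh38.p14). That of DDX27 is on the plus strand at chr20:49219166-49219465 and that of PTPN1 on the plus strand at chr20:50510133-50510432.
DDX27: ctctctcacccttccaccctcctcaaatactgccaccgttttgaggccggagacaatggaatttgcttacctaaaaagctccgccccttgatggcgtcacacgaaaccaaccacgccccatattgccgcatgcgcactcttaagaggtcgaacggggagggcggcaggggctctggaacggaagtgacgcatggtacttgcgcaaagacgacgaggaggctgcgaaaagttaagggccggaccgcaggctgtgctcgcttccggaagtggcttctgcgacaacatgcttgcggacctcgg
PTPN1: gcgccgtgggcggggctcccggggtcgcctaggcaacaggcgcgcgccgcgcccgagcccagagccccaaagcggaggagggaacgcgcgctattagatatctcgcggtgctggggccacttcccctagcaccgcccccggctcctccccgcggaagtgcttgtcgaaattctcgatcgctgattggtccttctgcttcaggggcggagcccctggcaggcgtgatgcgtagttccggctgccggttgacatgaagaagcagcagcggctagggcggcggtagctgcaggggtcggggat

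A minus-strand window of STAU1 overlaps that of DDX27 by 220 bases. STAU1, a protein that binds double-stranded RNA, was not called in any comparison. Its brightest probe read 10300 and 8018 after Snai1 siRNA, 10547 and 11078 after control siRNA, and 10164 and 8344 after ncRNA-a7 siRNA, with a log2 change of -0.12 ± 0.12 with ncRNA-a7 siRNA (adjusted p = 0.597). The dimmest of its 3 probes differed by -0.42 with Snai1 siRNA (adjusted p = 0.055 with every probe as a feature). The difference between the DDX27 and STAU1 changes was not tested. DPM1, the catalytic subunit of dolichol-phosphate mannose synthase, and MOCS3, a sulfurtransferase of molybdenum cofactor synthesis, form a second such divergent pair. The DPM1 signals were 4193 and 3514 after Snai1 siRNA, 4508 and 4580 after control siRNA, and 3564 and 3625 after ncRNA-a7 siRNA, and with ncRNA-a7 siRNA it differed from control by -0.25 ± 0.13 (adjusted p = 0.259). MOCS3 read 168.0 and 173.7 after Snai1 siRNA, 208.8 and 198.3 after control siRNA, and 234.6 and 176.6 after ncRNA-a7 siRNA, with a difference of 0.01 ± 0.16 for ncRNA-a7 siRNA (adjusted p = 0.987).

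Across the promoter table, CACCTG on either strand occurred in 20.6% of 35116 windows. It occurred in 6 of the 36 windows of the list, which covered 24 of its genes, and these belonged to SULF2, ARFGEF2, SLC9A8, BCAS4 and NFATC2. BCAS1, KCNG1, PARD6B, PEDS1, PTGIS, SALL4, SNAI1, TRERNA1 and ZNFX1 were not matched in the table. Of the called genes, SULF2 had a match, in 1 of its 4 windows. That window, on the minus strand at chr20:47764379-47764678, is shown with the match in capitals at position 183, counted from 1 at its 5′ end.
SULF2: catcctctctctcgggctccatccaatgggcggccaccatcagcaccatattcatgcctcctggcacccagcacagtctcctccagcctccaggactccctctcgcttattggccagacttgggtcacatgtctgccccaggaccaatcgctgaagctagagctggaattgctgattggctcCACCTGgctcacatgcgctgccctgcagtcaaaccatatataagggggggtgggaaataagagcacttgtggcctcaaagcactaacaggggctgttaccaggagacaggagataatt

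KCNG1 and PARD6B came nearest to a call among the other 11 genes between 250 kb and 1 Mb. KCNG1, a modifying subunit of voltage-gated potassium channels 962.9 kb away, read 454.1 and 362.3 after Snai1 siRNA, 531.0 and 602.3 after control siRNA, and 523.6 and 426.2 after ncRNA-a7 siRNA. Both Snai1 siRNA arrays lay below both controls. Its log2 change with Snai1 siRNA was -0.43 ± 0.13 (adjusted p = 0.0598), and its dim second probe read 144.1 and 130.2 after Snai1 siRNA, 172.7 and 156.7 after control siRNA, and 146.7 and 137.6 after ncRNA-a7 siRNA. PARD6B, a scaffold of the cell polarity complex 690.9 kb away, read 136.6 and 155.7 after ncRNA-a7 siRNA, 171.1 and 189.0 after control siRNA, and 166.5 and 153.4 after Snai1 siRNA. All arrays with a targeting siRNA lay below both controls, and its log2 change with ncRNA-a7 siRNA was -0.42 ± 0.14 (adjusted p = 0.0731). KCNG1 was called with Snai1 siRNA under 7 of 19 alternatives. PARD6B was called with ncRNA-a7 siRNA under 1 of 18, at an adjusted p of 0.0324 on leaving out ncRNA-a7 siRNA replicate 2.

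The remaining genes of this interval differed less. ZNFX1, an antiviral helicase-like sensor of RNA, read 885.5 and 699.6 after Snai1 siRNA, 664.6 and 814.8 after control siRNA, and 916.0 and 770.5 after ncRNA-a7 siRNA. Its signals overlapped between groups, while its normalized values lay above control with both siRNAs, by 0.22 ± 0.12 and 0.26 ± 0.12 (adjusted p = 0.315 and 0.217). B4GALT5, which makes lactosylceramide, read 5612 and 4649 after Snai1 siRNA, 4934 and 5622 after control siRNA, and 4741 and 4692 after ncRNA-a7 siRNA. Its changes were 0.09 ± 0.12 with Snai1 siRNA and -0.06 ± 0.12 with ncRNA-a7 siRNA. CSE1L, which returns importin alpha to the cytoplasm, read 14312 and 10102 after Snai1 siRNA, 12158 and 12118 after control siRNA, and 12654 and 13007 after ncRNA-a7 siRNA, with changes of 0.15 ± 0.12 and 0.16 ± 0.12. BCAS4, a gene first found amplified in breast carcinoma, read 4070 and 2815 after Snai1 siRNA, 3424 and 3436 after control siRNA, and 2701 and 2950 after ncRNA-a7 siRNA on the brightest of 3 probes past the filter. Over those probes its changes ran from -0.05 to 0.11 with Snai1 siRNA and from -0.18 to 0.05 with ncRNA-a7 siRNA. ADNP, a homeobox protein of chromatin, read 1814 and 1449 after Snai1 siRNA, 1705 and 2192 after control siRNA, and 1845 and 1651 after ncRNA-a7 siRNA, with changes of -0.15 ± 0.12 and -0.09 ± 0.12. RIPOR3 read 148.2 and 151.7 after Snai1 siRNA, 155.0 and 162.0 after control siRNA, and 168.3 and 172.9 after ncRNA-a7 siRNA. Its 3 groups did not overlap, with changes of -0.08 ± 0.12 and 0.17 ± 0.12 (adjusted p = 0.751 and 0.433). None of these genes was called against control. Over the 13 genes of this interval, 9 log2 changes were negative with each siRNA, with medians of -0.12 in both comparisons, which share the control arrays. Over all features 51.4% of changes were negative with Snai1 siRNA and 52.3% with ncRNA-a7 siRNA.

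Beyond 1 Mb, 8 genes of the list were tested. BCAS1, a protein first found amplified in breast carcinoma and known for its expression in myelinating glia, lies farthest from TRERNA1 of the list, at 3903 kb. It read 477.1 and 478.8 after control siRNA, 849.7 and 720.6 after Snai1 siRNA, and 1072 and 1434 after ncRNA-a7 siRNA. The 3 groups did not overlap. BCAS1 rose 1.84-fold with Snai1 siRNA (log2 change 0.88 ± 0.16, adjusted p = 0.00574) and 2.89-fold with ncRNA-a7 siRNA (log2 change 1.53 ± 0.16, adjusted p = 0.000192). The latter change lay at the 99.9 percentile of all features. It was 1.57-fold higher after ncRNA-a7 siRNA than after Snai1 siRNA (log2 difference 0.65 ± 0.16, adjusted p = 0.0303).

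A second BCAS1 probe moved alike. It read 438.3 and 437.3 after control siRNA, 676.2 and 516.4 after Snai1 siRNA, and 1300 and 1075 after ncRNA-a7 siRNA, again without overlap. With every probe as a feature it was called in all 3 comparisons (adjusted p = 0.0182 with Snai1 siRNA, 4.29e-05 with ncRNA-a7 siRNA and 0.00143 between the siRNAs). The third probe was dim and read 143.2 and 134.9 after control siRNA, 111.0 and 128.4 after Snai1 siRNA, and 147.5 and 123.9 after ncRNA-a7 siRNA. The rise with ncRNA-a7 siRNA was called in all 19 alternatives, at log2 changes of 1.30 to 1.77. The rise with Snai1 siRNA was not called without Snai1 siRNA replicate 2 (0.78, adjusted p = 0.067) or control siRNA replicate 2 (0.75, adjusted p = 0.0682). The direct difference was not called without Snai1 siRNA replicate 1 (0.55, adjusted p = 0.148), Snai1 siRNA replicate 2 (0.75, adjusted p = 0.0961), control siRNA replicate 1 (0.65, adjusted p = 0.0506), or the second ncRNA-a7 siRNA replicate (0.41, adjusted p = 0.165), nor with an offset of 16 (adjusted p = 0.102) or no filter (0.0992). Neither of these 2 calls held against a minimum change of 1.5-fold.

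SULF2, an extracellular sulfatase that edits heparan sulfate and so alters growth factor binding, lies 2383 kb from TRERNA1 on the SNAI1 side. Its brightest probe read 450.7 and 384.1 after ncRNA-a7 siRNA, 291.1 and 346.6 after control siRNA, and 391.5 and 318.1 after Snai1 siRNA. The ncRNA-a7 siRNA arrays lay above both controls. SULF2 rose 1.40-fold with ncRNA-a7 siRNA (log2 change 0.49 ± 0.12, adjusted p = 0.0263) and differed by 0.28 ± 0.12 with Snai1 siRNA (adjusted p = 0.194). The call was lost without control siRNA replicate 1 (adjusted p = 0.169), control siRNA replicate 2 (0.111), or the first ncRNA-a7 siRNA replicate (0.146). It was also lost with median scaling (0.172), an offset of 16 (0.0601), no filter (0.106) and the test against a minimum change of 1.5-fold.

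The other 2 SULF2 probes gave a different order of the siRNAs. The first read 390.5 and 302.9 after Snai1 siRNA, 210.9 and 256.1 after control siRNA, and 316.2 and 297.5 after ncRNA-a7 siRNA. The second read 271.4 and 231.7 after Snai1 siRNA, 173.8 and 205.8 after control siRNA, and 222.3 and 241.6 after ncRNA-a7 siRNA. All arrays with a targeting siRNA lay above both controls on these probes. With every probe as a feature both were called with Snai1 siRNA (log2 changes 0.78 and 0.62, adjusted p = 0.00217 and 0.00924). With ncRNA-a7 siRNA the first was called (0.53, adjusted p = 0.0156) and the second was not (0.41, adjusted p = 0.0609). In that fit 8.88% of 24350 probes were called with Snai1 siRNA, 9.56% with ncRNA-a7 siRNA and 7.71% between the siRNAs. By the mean of its 3 probes SULF2 was called with Snai1 siRNA too (0.56, adjusted p = 0.0112). No SULF2 probe was called between the siRNAs (adjusted p = 0.249 to 0.348).

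**Figure D4:**
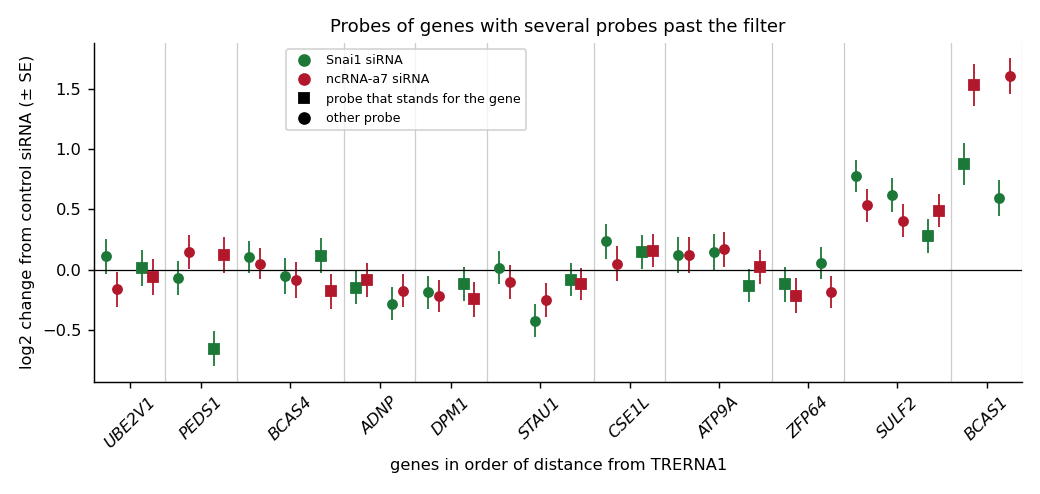
Log2 change from control siRNA (y axis, bars are SE of the fit over all probes, n = 2 arrays per group) of each probe past the filter, for the 11 genes with more than 1 such probe. The PEDS1 probes differ with Snai1 siRNA (-0.65 and -0.07), while all 3 SULF2 probes and both BCAS1 probes lie above 0.

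The other 6 genes beyond 1 Mb were not called against control. PREX1, an exchange factor for Rac, read 177.2 and 145.7 after Snai1 siRNA, 135.3 and 152.1 after control siRNA, and 149.0 and 165.6 after ncRNA-a7 siRNA, and its groups overlapped. SALL4, a zinc finger factor of embryonic stem cells, read 430.1 and 300.6 after Snai1 siRNA, 319.4 and 374.6 after control siRNA, and 381.5 and 359.5 after ncRNA-a7 siRNA, with changes of 0.15 ± 0.12 and 0.15 ± 0.12. ARFGEF2, an exchange factor for ARF GTPases of the Golgi, read 727.1 and 509.4 after Snai1 siRNA, 620.7 and 687.2 after control siRNA, and 508.2 and 576.6 after ncRNA-a7 siRNA. The ncRNA-a7 siRNA arrays of ARFGEF2 lay below both controls, by -0.25 ± 0.13 (adjusted p = 0.249). ZFP64, a zinc finger protein, read 252.0 and 226.9 after Snai1 siRNA, 253.7 and 281.8 after control siRNA, and 259.8 and 214.6 after ncRNA-a7 siRNA, with changes of -0.12 ± 0.13 and -0.22 ± 0.13. ATP9A, a lipid flippase of endosomes, read 4813 and 3677 after Snai1 siRNA, 4455 and 5734 after control siRNA, and 5240 and 4366 after ncRNA-a7 siRNA, with changes of -0.13 ± 0.12 and 0.02 ± 0.12. ZNF217, a transcriptional repressor amplified in breast carcinoma, read 2378 and 1896 after Snai1 siRNA, 2128 and 2619 after control siRNA, and 2414 and 2101 after ncRNA-a7 siRNA. Its groups overlapped, with changes of -0.04 ± 0.12 and 0.01 ± 0.12. ZNF217 is the gene of the list next to BCAS1, and the difference between their changes was not tested.

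Compared directly, 2 of the 26 genes were called, PEDS1 and BCAS1, both higher after ncRNA-a7 siRNA than after Snai1 siRNA, where 8.11% of all features were called. The arrays of the siRNAs did not overlap for 12 of 26 genes, against 50.9% of all features. Over named genes alone 56.6% did not overlap and 10.1% were called. The 24 uncalled differences ran from -0.41 to 0.29 (adjusted p = 0.108 to 0.979).

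Along the chromosome, 0 of 5 tested genes under 250 kb, 2 of 13 between 250 kb and 1 Mb and 2 of 8 beyond 1 Mb were called with ncRNA-a7 siRNA. Their median log2 changes were -0.06, -0.12 and 0.08. With Snai1 siRNA the counts were 1, 0 and 1 and the medians 0.02, -0.12 and 0.08. Against 9.94% and 9.16% of all features called, each of these counts is within 2 genes of the background. With so few genes per band a count could hardly depart further, so the counts cannot decide whether distance matters. As a description over genes, which share arrays and normalization, Spearman's rank correlation between distance and the size of the log2 change was 0.09 with Snai1 siRNA and 0.17 with ncRNA-a7 siRNA over 26 genes. Without BCAS1 it was -0.02 and 0.07 over 25 genes. Between the siRNAs it was -0.28, and -0.42 without BCAS1.

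Another 34 named genes past the filter, taken by position alone, lie within 5 Mb of TRERNA1. Most are on the SNAI1 side, and all but the PEDS1-UBE2V1 readthrough lie at least 2831 kb away. Of the 34 genes, 2 rose and 0 fell with Snai1 siRNA, and 1 rose and 2 fell with ncRNA-a7 siRNA. The median log2 changes were -0.01 and 0.06. That is 5.88% and 8.82% called, beside 9.16% and 9.94% of all features and 11.5% and 12.5% of named genes. SDC4, a heparan sulfate proteoglycan 4715 kb from TRERNA1 on the SNAI1 side, was 1.76-fold higher with Snai1 siRNA and 1.71-fold lower with ncRNA-a7 siRNA (adjusted p = 0.00155 and 0.00193). PCIF1, a methyltransferase of the mRNA cap, rose 1.38-fold with Snai1 siRNA (adjusted p = 0.0277). SLPI, a secreted inhibitor of leukocyte protease, rose 1.49-fold with ncRNA-a7 siRNA (adjusted p = 0.0399), and PFDN4, a prefoldin subunit, was 1.35-fold lower (adjusted p = 0.0428). Between the siRNAs 4 of the 34 were called (11.8%, beside 8.11% of all features and 10.1% of named genes). SDC4 had the largest of these differences and was lower after ncRNA-a7 siRNA (log2 difference -1.59 ± 0.12, adjusted p = 6.2e-05). Another is the PEDS1-UBE2V1 readthrough, which was higher. PCIF1 and the chromatin reader ZMYND8 were 1.59-fold and 1.43-fold lower after ncRNA-a7 siRNA than after Snai1 siRNA (adjusted p = 0.00574 and 0.0239). Over the 342 other tested genes of chromosome 20, 12.6% were called with Snai1 siRNA and 11.4% with ncRNA-a7 siRNA, beside 7.69% and 15.4% of the 26 genes of the list.

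**Figure D5:**
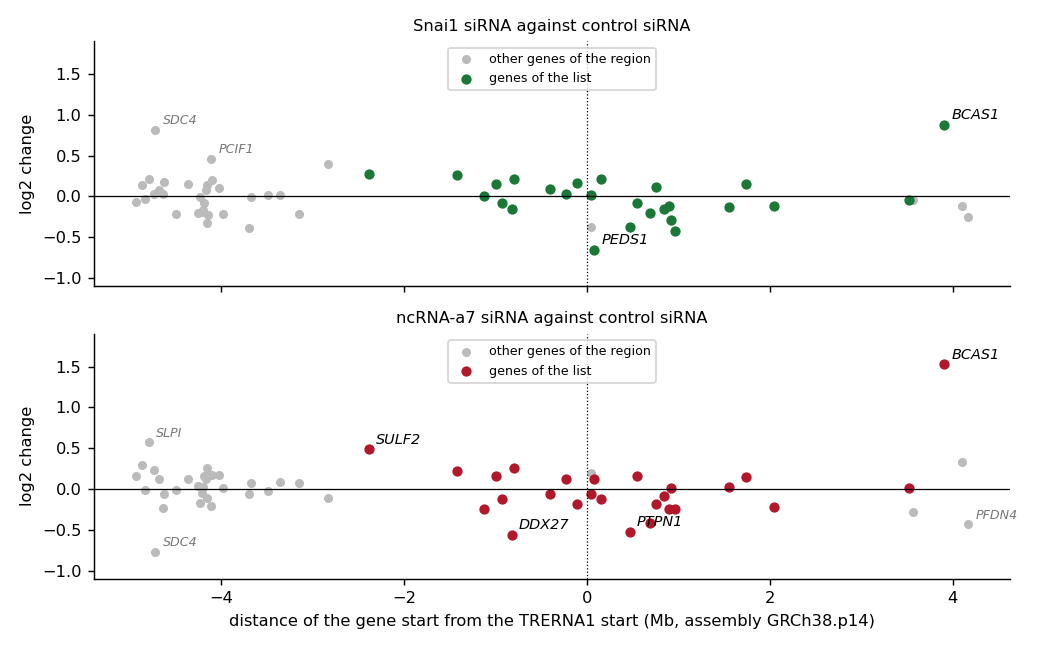
Log2 change from control siRNA (y axis) for the 26 tested genes of the list and 34 other genes within 5 Mb, for each siRNA. The x axis is the distance between the lowest coordinate of a gene, which the axis label calls its start, and that of TRERNA1 (Mb, negative on the SNAI1 side). With ncRNA-a7 siRNA the 5 nearest tested genes of the list, which leave out SNAI1, lie between -0.18 and 0.12, and BCAS1 is the highest point.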

How the data were processed

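Total RNA of 6 samples was labelled with biotin and measured on bead arrays, per the labels. The deposited intensities are linear, with no scaling between arrays. The scanner software was not given in the sources used here, and no detection p-values were used. A second table by the authors holds the same intensities times 1 constant per array, so that every array has a mean of 715. It served as an alternative.

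Background was corrected with normexp (offset 50), followed by quantile normalization and log2, in limma 3.58.1 under R 4.3.3. The 24350 probes past the filter gave 19730 features, of which 13057 were named genes and 6673 were probes without a gene. Gene names came from the platform annotation, in which 28044 probes had 1 symbol, 13 several and 20644 none, and 28005 identifiers were found in RefSeq. All 6 arrays entered 1 limma fit with moderated tests and Benjamini-Hochberg adjustment over all features, on 3 residual degrees of freedom and a prior of 8.90, with a median standard error of 0.13. An exact permutation test of 2 arrays against 2 cannot go below p = 0.333.

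Every gene of the list is named. Those called, both targets and the 5 nearest tested are described in full, and of other genes within 5 Mb at most the 6 called with the smallest p. The members and lists were chosen with earlier results of these data known.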

Additional observations from a re-analysis of the deposited data

How the results depend on the processing

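Over 19 alternatives, 0 of the 8 called differences of the list changed sign and 1, BCAS1 with ncRNA-a7 siRNA, was called in all of them (adjusted p up to 0.0207). Of 70 uncalled differences, 7 were called under some alternative and 26 changed sign under some. In the order Snai1 siRNA against control, ncRNA-a7 siRNA against control and ncRNA-a7 siRNA against Snai1 siRNA, the main counts over all features were 1807, 1962 and 1601. They were 987, 1032 and 569 with an offset of 16, 1064, 920 and 698 with median scaling, 2876, 3136 and 2748 with the authors' scaled values, 820, 822 and 498 without the filter, and 50, 70 and 23 against a minimum change of 1.5-fold. A trended robust prior gave 2718, 2936 and 2574. The counts were 2665, 2865 and 2487 without background correction and 2619, 2820 and 2498 over probes brighter than 75% of all. Median scaling lowered the share of calls that were higher from 53.3% to 33.7% in the first and raised it from 58.4% to 70.6% in the third. Leaving out 1 array gave 467 to 1942, 563 to 1768 and 341 to 1153.

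For the list, the main counts were 2, 4 and 2. They were 4, 4 and 5 with the authors' scaled values and 4, 4 and 4 over the brighter probes. Without background correction or with the trended prior they were 3, 4 and 4. An offset of 16 and no filter each gave 1 in the second and 1 in the third, and the minimum change gave 0, 1 and 0. Leaving out 1 array gave 0 to 3, 1 to 5 and 1 to 2. The causes were not tested. With the replicate number as a replicate block the list gave 2, 4 and 2 calls and all features 1664, 1730 and 1433. Deviations of same-numbered arrays correlated at -0.07, 0.01 and -0.01, so the numbers were not taken as pairs. Low signal over background limits SNAI1, TRERNA1 and the other genes whose probes are all dim. It also limits tested genes in or near the same range, such as UBE2V1, RIPOR3, PREX1 and PARD6B.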
